A study of Mus musculus with 22 samples.

Results

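Genes of cholesterol synthesis and of its control by SREBP2 were examined in the livers of mice lacking Cyp2c70, with and without ursodeoxycholic acid (UDCA) in the diet. The members were the rows of the deposited values annotated with 29 listed gene symbols. The list was drawn up with earlier results of these data known. Of the 29, 26 had a row of their own among 24011 named genes, and Acat2, Soat1 and Soat2 were not analysed here. The measured members fall into 7 genes of mevalonate and isoprenoid steps, 12 of squalene and sterol steps, 6 of sterol sensing and SREBP2 processing, and the sterol transport gene Stard4. Total liver RNA of 22 female C57BL/6J mice, 12 weeks old, was hybridised to Affymetrix MoGene 2.0 ST arrays, 1 array per mouse. WT_chow were wild-type mice on regular chow (n = 5), and WT_UDCA were wild-type mice given 0.1% UDCA in chow for 7 weeks from the age of 5 weeks (n = 6). KO_chow were Cyp2c70 knockout mice on regular chow (n = 5), and KO_UDCA were knockout mice on the same UDCA diet (n = 6). Cyp2c70 encodes the mouse enzyme that makes muricholic acids, and the series title concerns UDCA, a hydrophilic bile acid, as a treatment of bile duct disease and scarring in these mice. The labels do not say which part of Cyp2c70 was deleted or whether littermates were used.

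Cholesterol is built from acetyl-CoA through mevalonate, isoprenoids, squalene and lanosterol, and the liver both makes it and consumes it for bile acids. SREBP2, the product of Srebf2, is a membrane-bound transcription factor that turns on most of these genes. When sterols are low, the escort protein SCAP carries it from the endoplasmic reticulum to the Golgi, where the proteases encoded by Mbtps1 and Mbtps2 release the active part. When sterols are high, the proteins encoded by Insig1 and Insig2 hold SCAP back.

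Promoter sequences are shown for some members, because SREBP2 is known to act at promoters through a sterol regulatory element, usually beside a CCAAT box. RefSeq promoter windows of assembly GRCm38.p6, from 250 bases before to 50 after each annotated start, were matched for 22 of the 26 members. Each run is the 200 bases before the start, read 5′ to 3′ on the gene's strand. Capitals mark matches to the sterol element TCACCCCAC or to CCAAT on either strand, where ATTGG is CCAAT on the opposite strand. Hmgcs1 lies at chr13:119690151-119690350 on the plus strand, Msmo1 at chr8:64733579-64733778 on the minus strand, Ebp at chrX:8193513-8193712 on the minus strand and Scap at chr9:110333156-110333355 on the plus strand. Hmgcs1 is shown for its sterol element, Msmo1 for its 3 CCAAT matches, and Ebp and Scap for their changes between groups. The Scap run is the second of its 2 overlapping windows.
Hmgcs1: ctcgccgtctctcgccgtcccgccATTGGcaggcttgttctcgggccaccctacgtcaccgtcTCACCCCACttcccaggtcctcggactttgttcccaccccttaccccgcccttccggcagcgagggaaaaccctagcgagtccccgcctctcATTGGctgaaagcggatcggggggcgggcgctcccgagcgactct
Msmo1: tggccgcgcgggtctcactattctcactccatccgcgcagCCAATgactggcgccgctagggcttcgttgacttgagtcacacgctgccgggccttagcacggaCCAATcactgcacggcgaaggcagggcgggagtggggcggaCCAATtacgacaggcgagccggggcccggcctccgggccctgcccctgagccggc
Ebp: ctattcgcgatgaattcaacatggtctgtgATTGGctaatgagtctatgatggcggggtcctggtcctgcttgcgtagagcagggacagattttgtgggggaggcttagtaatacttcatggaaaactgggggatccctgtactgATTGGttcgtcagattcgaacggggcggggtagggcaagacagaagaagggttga
Scap: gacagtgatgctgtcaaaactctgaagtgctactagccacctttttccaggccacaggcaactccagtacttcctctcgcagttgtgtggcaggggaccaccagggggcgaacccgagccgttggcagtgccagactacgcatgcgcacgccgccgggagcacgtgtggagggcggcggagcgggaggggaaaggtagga
The exact letters TCACCCCAC, or their reverse complement GTGGGGTGA, stood in the windows of 1 of 22 members (28 windows in all), Hmgcs1, 137 bases before the start. The same letters stood in 166 of 27025 genes with a window, or 0.614%. CCAAT on either strand stood in 19 of 22 members (86.4%) against 41.1% of all genes with a window. The members without it were Scap, Mbtps1 and Mbtps2, which all act on the SREBP2 protein. The window of Mvk, the mevalonate kinase gene, held 5 matches, and that of Ebp held 2. These are letter matches and not measured sites.

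Deposited intensities were converted to log2, so every level below is in log2 units of normalised intensity and every change is a difference of group means. A level can be set against the same gene in other mice but not against another gene. Between 15.7 and 53.4 on the first principal component (26.7% of the variance), the KO_chow mice spread more than any other group, with replicates 2 and 5 farthest out at 53.4 and 51.9. Cyp2c70 measured 10.27 to 10.83 in knockout mice and 11.22 to 11.62 in wild types, with no overlap. All 26 members lay above the array's median intensity in every mouse. The labels call the mice biological replicates.

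The comparison of KO_chow with WT_chow asks how the genes stood in knockout livers without treatment. Scap, the escort of SREBP2, fell 1.72-fold, and Ebp, the sterol isomerase, fell 1.35-fold. Lbr, whose product is both a nuclear envelope protein and a sterol reductase, rose 1.37-fold. Of 26 members, 3 changed at a limma adjusted p below 0.05 (11.5%), against 13.7% of all genes tested. The 1 rise stands against 7.69% of all genes and the 2 falls against 6.03%, and 8 members had an unadjusted p below 0.05 against 25.5% of all genes. Most steps of the pathway did not pass. Differences were negative in 17 members and positive in 9, against 13826 and 10185 of all 24011 genes. The median difference was -0.13 against -0.037 over all genes. The groups did not overlap for 3 members, Scap, Ebp and Mbtps2, against 9.43% of all genes.

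**Figure D1:**
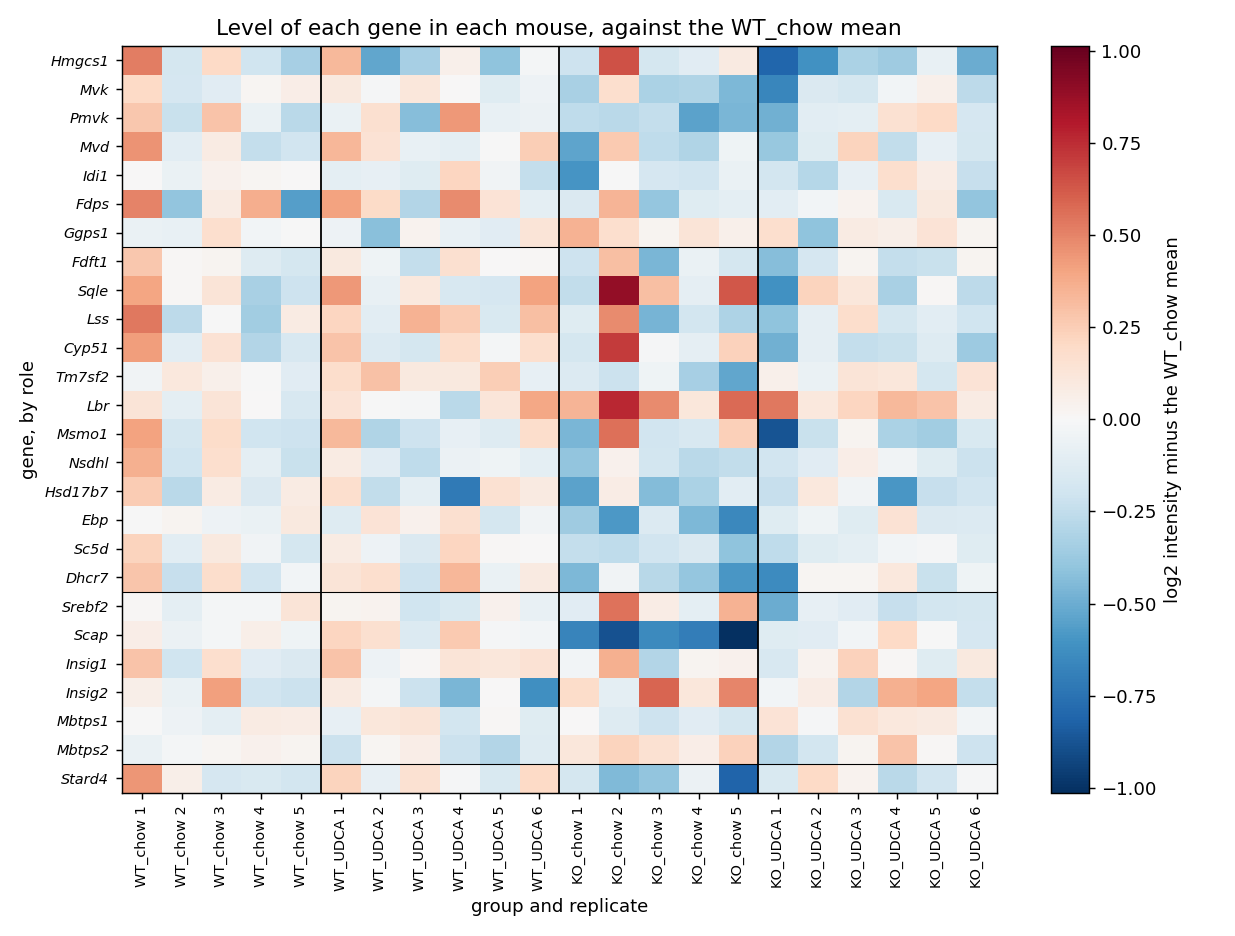
Level of each of the 26 genes (rows, by role) in each of the 22 mice (columns, by group), as log2 intensity minus the WT_chow mean, on a colour scale symmetric around 0. Scap is low in all 5 KO_chow mice, and WT_chow replicate 1, KO_chow replicate 2 and KO_UDCA replicate 1 stand out along many rows of sterol enzymes.

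Scap measured 9.14, 9.01, 9.05, 9.13 and 9.03 in the WT_chow mice. It measured 8.40, 8.19, 8.42, 8.37 and 8.06 in the KO_chow mice. Every KO_chow mouse lay below every WT_chow mouse, and replicates 2 and 5 were the lowest. The group means were 9.07 ± 0.058 (SD, n = 5) and 8.29 ± 0.16 (SD, n = 5). The difference was -0.78 (SE 0.093, 95% interval -0.98 to -0.59, limma adjusted p = 4.24e-06). It was far larger than the spread between mice of either group, and the call held in all 18 alternatives run, with adjusted p no higher than 0.000342.

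The other genes of sterol sensing did not pass the test. Srebf2 measured 8.05, 7.94, 8.02, 8.02 and 8.18 in WT_chow. It measured 7.93, 8.59, 8.12, 7.95 and 8.40 in KO_chow. KO_chow replicates 2 and 5 lay above all WT_chow mice and the other 3 lay beside them, so the groups overlapped. The difference was 0.15 (SE 0.11, 95% interval -0.08 to 0.38, limma adjusted p = 0.425), and it was -0.046 without replicates 2 and 5. Insig2, one of the 2 retention proteins of the endoplasmic reticulum, measured 8.74, 8.62, 9.10, 8.49 and 8.46 in WT_chow. In KO_chow it measured 8.87, 8.58, 9.27, 8.79 and 9.17. The groups overlapped widely, with a difference of 0.26 (SE 0.17, limma adjusted p = 0.369). Insig1, the other retention protein and itself a target of SREBP2, stood at 10.42 ± 0.22 in WT_chow and 10.44 ± 0.24 in KO_chow (SD, n = 5 each). Its difference of 0.023 had a 95% interval from -0.21 to 0.26. The protease genes differed by -0.13 for Mbtps1 (limma adjusted p = 0.320) and 0.16 for Mbtps2 (adjusted p = 0.319). Mbtps2 ran from 6.40 to 6.52 in WT_chow and from 6.54 to 6.71 in KO_chow, so it did not overlap although it missed the threshold.

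**Figure D2:**
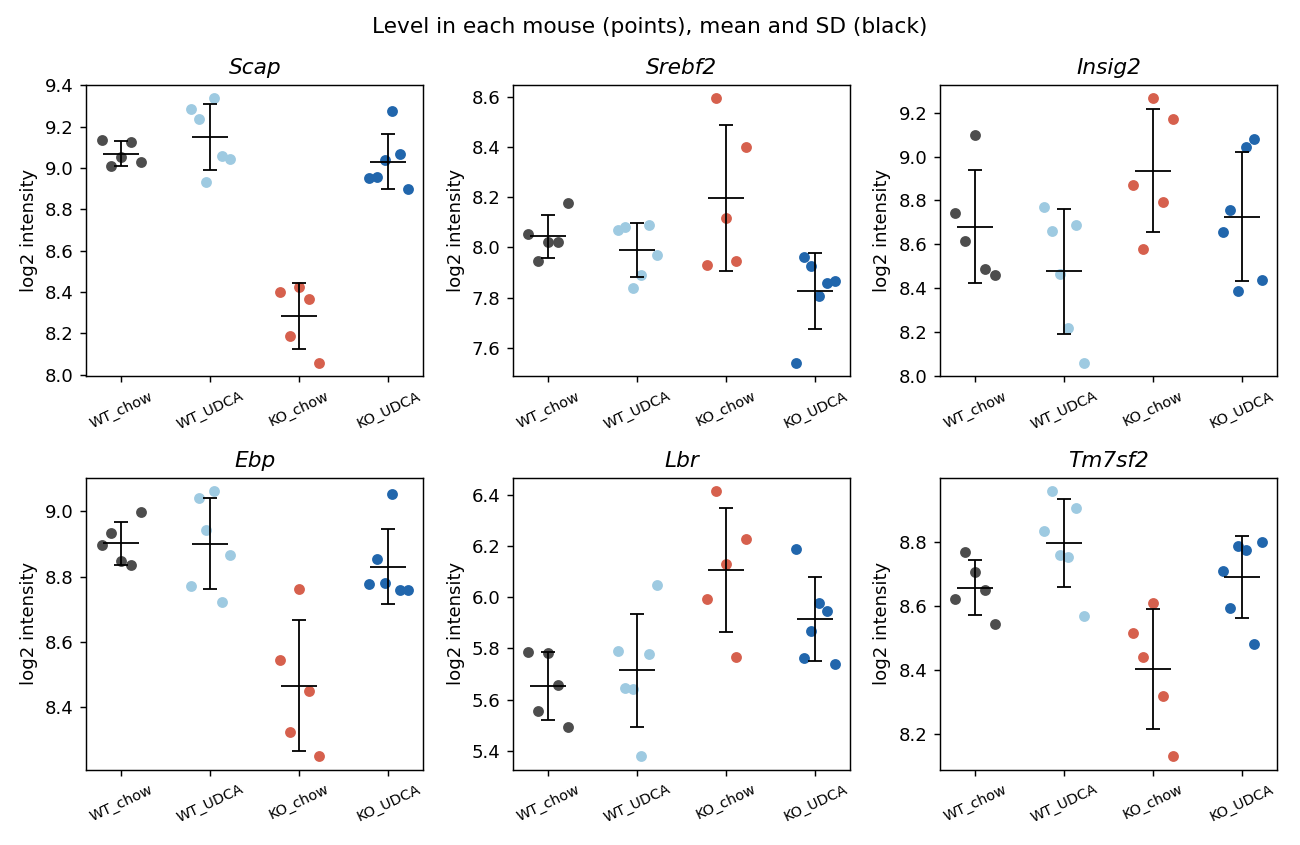
Level of Scap, Srebf2, Insig2, Ebp, Lbr and Tm7sf2 (log2 intensity, vertical axis) in each mouse of the 4 groups, with black bars for the mean and SD (n = 5, 6, 5 and 6 from left to right); the vertical axes differ between panels and do not start at 0. The 5 KO_chow mice lie between 8.06 and 8.42 for Scap, below all mice of the other groups, while for Srebf2, Insig2, Lbr and Tm7sf2 the groups overlap.

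Among the sterol steps, 1 of 12 genes rose, 1 fell and 10 did not pass (16.7% called, against 13.7% of all genes). Ebp shifts a double bond in the sterol ring late in the pathway. It measured 8.90, 8.93, 8.85, 8.84 and 9.00 in WT_chow. In KO_chow it measured 8.54, 8.32, 8.76, 8.45 and 8.25. The highest KO_chow mouse, replicate 3, lay just below the lowest WT_chow mouse. The difference was -0.44 (SE 0.094, 95% interval -0.63 to -0.24, limma adjusted p = 0.00277). Without KO_chow replicates 2 and 5 it was -0.32 with an adjusted p of 0.0716.

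Lbr and Tm7sf2 both encode a C14 sterol reductase, and they differed in opposite directions. Lbr measured 5.79, 5.55, 5.78, 5.66 and 5.49 in WT_chow. In KO_chow it measured 5.99, 6.41, 6.13, 5.77 and 6.23. Of the KO_chow mice, 4 lay above every WT_chow mouse and replicate 4 lay among them. The rise was 0.45 (SE 0.12, 95% interval 0.20 to 0.71, limma adjusted p = 0.0141). It was 0.38 with an adjusted p of 0.0568 without KO_chow replicate 2, and 0.31 with 0.221 without replicates 2 and 5. Tm7sf2 measured 8.62, 8.77, 8.71, 8.65 and 8.54 in WT_chow and 8.52, 8.44, 8.61, 8.32 and 8.13 in KO_chow. The groups overlapped, and its difference of -0.25 (SE 0.094) missed the threshold at a limma adjusted p of 0.0782. Tm7sf2 passed in 3 of the 18 alternatives run, with a limma adjusted p as low as 0.0394.

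The remaining sterol enzymes differed less than their spread allowed a call. Sc5d, the sterol desaturase, had a difference of -0.25 (limma adjusted p = 0.0572), and Dhcr7, the last enzyme of the Kandutsch-Russell branch, had -0.35 (adjusted p = 0.0986). Sc5d did pass in some alternatives, among them adding 16 to the intensities. Sqle, the squalene epoxidase and a rate-limiting step, ran from 7.87 to 8.60 in WT_chow and from 7.95 to 9.09 in KO_chow. Its difference was 0.30 (SE 0.20, 95% interval -0.12 to 0.71, limma adjusted p = 0.386). Cyp51, the lanosterol demethylase, and Msmo1, the C4 methyl oxidase, had 0.13 and -0.0030 (adjusted p = 0.648 and 0.995). Fdft1, Lss, Nsdhl and Hsd17b7, which make squalene, close the ring and strip methyl groups, had between -0.27 and -0.12.

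None of the 7 mevalonate and isoprenoid genes passed, against 13.7% of all genes. Pmvk, the phosphomevalonate kinase, measured 8.54, 8.04, 8.56, 8.20 and 8.00 in WT_chow. It measured 8.01, 8.00, 8.03, 7.72 and 7.81 in KO_chow. The KO_chow mice sat at or below the low end of WT_chow, with a difference of -0.35 (SE 0.15, limma adjusted p = 0.123). Mvk, the kinase before it, measured 6.58, 6.21, 6.26, 6.39 and 6.45 in WT_chow. In KO_chow it measured 6.05, 6.54, 6.06, 6.08 and 5.92. All KO_chow mice except replicate 2 lay below the wild types, with a difference of -0.25 (SE 0.12, limma adjusted p = 0.200). Hmgcs1, a synthase of the early mevalonate steps, ran from 10.50 to 11.36 in WT_chow and from 10.63 to 11.49 in KO_chow. Its difference was 0.048 with a 95% interval from -0.34 to 0.44. Stard4, a cytosolic carrier of cholesterol, measured 8.60, 8.21, 7.98, 8.00 and 7.97 in WT_chow. In KO_chow it measured 7.98, 7.70, 7.75, 8.09 and 7.34. The groups overlapped, with a difference of -0.38 (SE 0.14, limma adjusted p = 0.0700). Stard4 passed in 4 of the 18 alternatives run, with a limma adjusted p as low as 0.0260.

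Counts of members called moved with the processing, and so did the share of all genes called. Keeping genes at or above the array median in at least 5 arrays called 6 of 26 members (23.1%, against 28.1% of the 12906 genes kept). Adding 16 to the intensities called 5 (19.2%, against 15.2% of all genes). Leaving out KO_chow replicates 2 and 5 left 1, Scap (3.85%, against 4.54% of all genes). These mice lay farthest out on the first principal component of the same data, and without them the KO_chow group was smaller.

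Markers of other liver cells differed in the same mice. Summed intensities of 7 monocyte-derived macrophage markers ran from 384 to 435 in WT_chow, and in KO_chow they were 721, 3440, 1365, 779 and 2588. Those of 7 cholangiocyte markers ran from 240 to 269 and from 616 to 1241, and those of 6 stellate cell and fibroblast markers from 1443 to 1535 and from 2242 to 2847. Those of 5 Kupffer cell markers ran from 1023 to 1174 in WT_chow and from 622 to 794 in KO_chow. Of these lists, 7 of 7, 7 of 7 and 5 of 6 rose, and 4 of 5 Kupffer cell markers fell. Over all genes, 7.69% rose and 6.03% fell. Hepatocyte markers (Alb, Apoa1, Ttr, Apoh and Ahsg) passed in 0 of 5, with sums of 22322 to 24327 over all 22 mice. The listed markers Tf and Spp1 were not analysed here. The part of these cells in the changes of Scap, Ebp and Lbr was not tested. In whole tissue, fewer cells of a type and less RNA per cell cannot be told apart.

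Knockout livers with and without UDCA were compared next (KO_UDCA vs KO_chow). It shares the KO_chow mice with the comparison of KO_chow and WT_chow, so the 2 are not independent. Scap rose 1.68-fold, Ebp rose 1.29-fold and Tm7sf2 rose 1.22-fold, while Srebf2 fell 1.29-fold. Of 26 members, 4 changed (15.4%), against 11.2% of all genes tested. The 3 rises stand against 5.03% of all genes and the 1 fall against 6.22%, and 10 members had an unadjusted p below 0.05 against 23.9% of all genes. Equal numbers, 13 and 13, had positive and negative differences, against 13677 and 10334 of all 24011 genes. The median was 0.018 against 0.033 over all genes. The groups did not overlap for 1 member, Scap, against 5.89% of all genes.

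**Figure D3:**
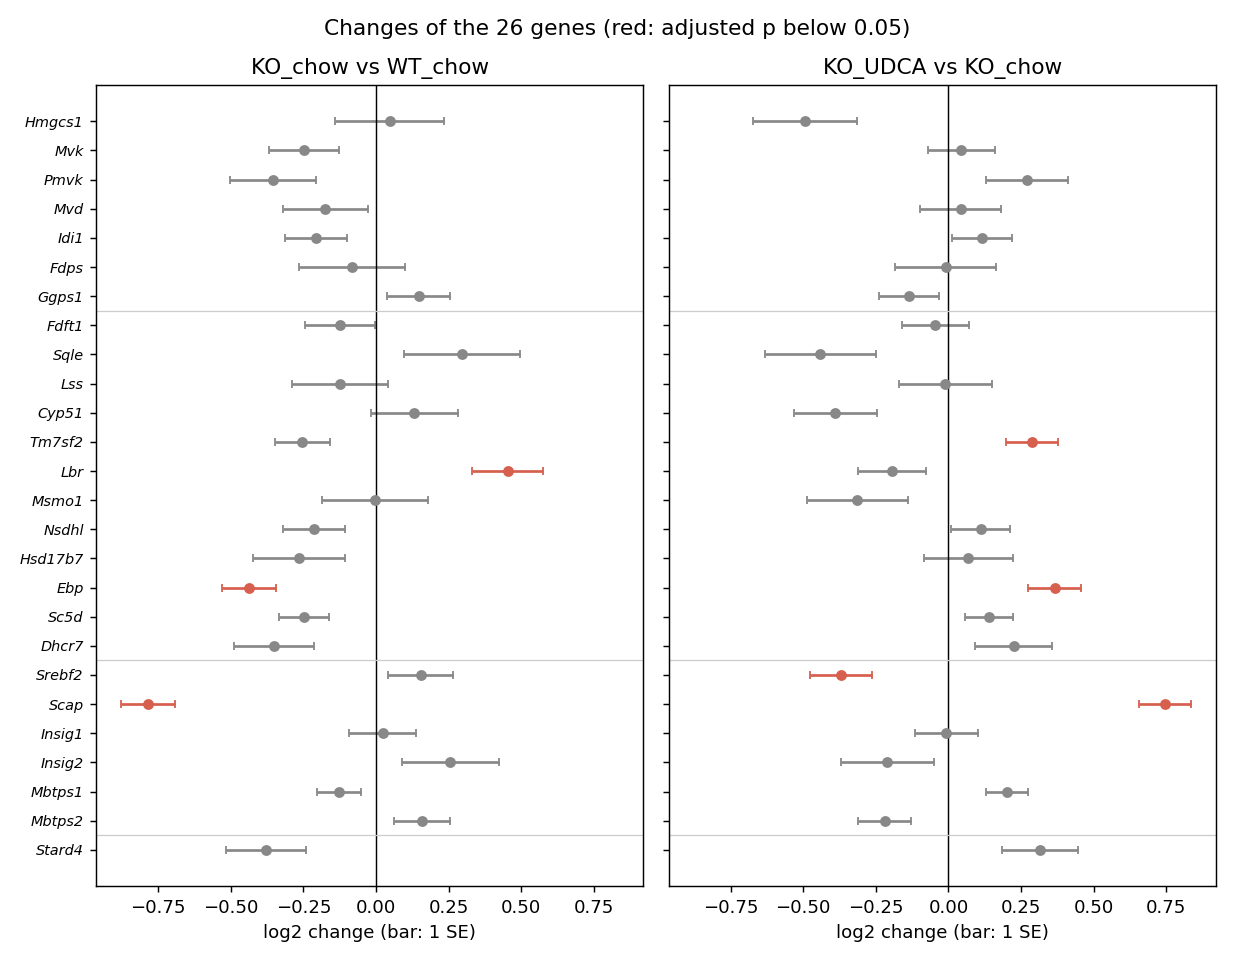
Log2 change of each of the 26 genes (points) with 1 SE (bars) for KO_chow minus WT_chow (left) and KO_UDCA minus KO_chow (right), with genes at a limma adjusted p below 0.05 in red. Scap lies at -0.78 on the left and 0.74 on the right, and the mevalonate genes at the top hold no red point; the panels share the KO_chow mice.

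Scap ran from 8.90 to 9.27 in KO_UDCA with a median of 9.00, above all 5 KO_chow mice. The rise was 0.74 (SE 0.089, 95% interval 0.56 to 0.93, limma adjusted p = 8.02e-06), and the call held in all 19 alternatives run. Srebf2 ran from 7.54 to 7.96 in KO_UDCA with a median of 7.86. KO_UDCA mice overlapped the 2 lowest KO_chow mice, replicates 1 and 4, and lay below the other 3. It fell by 0.37 (SE 0.11, 95% interval -0.59 to -0.15, limma adjusted p = 0.0248). The adjusted p was 0.101 without KO_chow replicate 2, 0.0880 without KO_chow replicate 5, 0.0619 without KO_UDCA replicate 1 and 0.104 in a fit to these groups alone. Without KO_chow replicates 2 and 5 the difference was -0.17 (adjusted p = 0.409).

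Ebp ran from 8.76 to 9.05 in KO_UDCA with a median of 8.78, and overlapped KO_chow through replicate 3 of KO_chow alone. The rise was 0.37 (SE 0.090, 95% interval 0.18 to 0.55, limma adjusted p = 0.00976), with an adjusted p of 0.200 without KO_chow replicates 2 and 5 and of 0.0508 in a fit to these groups alone. Tm7sf2 ran from 8.48 to 8.80 in KO_UDCA with a median of 8.74, and the lowest KO_UDCA mice lay among the KO_chow mice. The rise was 0.29 (SE 0.090, limma adjusted p = 0.0405). Leaving out any of KO_chow replicates 2, 4 and 5 or KO_UDCA replicates 1, 3, 4 and 6 put its adjusted p between 0.0654 and 0.148, and it was 0.306 without KO_chow replicates 2 and 5 and 0.109 in a fit to these groups alone. Lbr ran from 5.74 to 6.19 in KO_UDCA, across most of the KO_chow range, and its difference of -0.19 had a limma adjusted p of 0.340.

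Hmgcs1, Cyp51, Sqle and Msmo1 had negative differences that missed the threshold. Hmgcs1 ran from 10.03 to 10.77 in KO_UDCA with a median of 10.41, and 5 of the 6 mice lay below the lowest KO_chow mouse, at 10.63. The difference was -0.49 (SE 0.18, 95% interval -0.87 to -0.12, limma adjusted p = 0.0807). Cyp51 and Sqle had -0.39 (SE 0.14, adjusted p = 0.0852) and -0.44 (SE 0.19, adjusted p = 0.153), and Msmo1 had -0.31 (SE 0.17, adjusted p = 0.289). Other enzymes lay near 0: Mvk at 0.044, Mvd, the decarboxylase, at 0.042, Fdps, the farnesyl diphosphate synthase, at -0.0097, and Lss at -0.011. Insig1 stood at 10.44 ± 0.14 in KO_UDCA (SD, n = 6), with a difference of -0.0068 and a 95% interval from -0.23 to 0.22. Pmvk, Dhcr7 and Stard4, whose differences in KO_chow vs WT_chow were negative without passing, had 0.27, 0.23 and 0.31 (adjusted p = 0.255, 0.321 and 0.136). Insig2, Mbtps1 and Mbtps2 had -0.21, 0.20 and -0.22 (adjusted p = 0.472, 0.0782 and 0.135).

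Keeping genes at or above the array median in at least 5 arrays called 7 of 26 members (26.9%, against 24% of the 12906 genes kept), and array weights called 2 (7.69%, against 8.53% of all genes). A fit to these groups alone and a fit without KO_chow replicates 2 and 5 called 1 each, Scap (3.85%), against 6.06% and 2.8% of all genes. Macrophage marker sums ran from 413 to 488 and cholangiocyte marker sums from 264 to 403 in KO_UDCA. All 7 members of each list fell from KO_chow, while 4 of 5 Kupffer cell markers rose and 4 of 6 stellate cell and fibroblast markers fell. Over all genes, 5.03% rose and 6.22% fell. The part of these cells in the changes of Scap, Ebp, Tm7sf2 and Srebf2 was not tested.

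The genotypes were also compared under UDCA, and KO_UDCA was set against untreated wild types. In KO_UDCA vs WT_UDCA 0 of 26 members passed by limma, against 0.0167% of all genes, and 1 had an unadjusted p below 0.05, against 5.45%. In KO_UDCA vs WT_chow 0 of 26 passed, against 0.025% of all genes, and 2 had an unadjusted p below 0.05, against 5.62%. Differences were negative in 21 of 26 and 20 of 26 members, against 12704 and 11854 of all 24011 genes. The medians were -0.12 and -0.098 against -0.0077 and 0.0020 over all genes. Both comparisons share the KO_UDCA mice. Scap ran from 8.93 to 9.34 in WT_UDCA with a median of 9.15, across the KO_UDCA range. Its difference was -0.12 from WT_UDCA (95% interval -0.29 to 0.058) and -0.039 from WT_chow (95% interval -0.22 to 0.15). Ebp ran from 8.72 to 9.06 in WT_UDCA, and its differences were -0.070 and -0.072 (95% intervals -0.25 to 0.11 and -0.26 to 0.11). The members at an unadjusted p below 0.05 were Cyp51 against WT_UDCA, at -0.31 (SE 0.14, limma adjusted p = 0.882), and Hmgcs1 and Lbr against WT_chow. Hmgcs1 had -0.45 (SE 0.18, adjusted p = 0.797) and Lbr 0.26 (SE 0.12, adjusted p = 0.879). Of the 7 mevalonate and 12 sterol genes, 6 and 11 had a negative difference from WT_UDCA, the lowest at -0.31, against 12704 of all 24011 genes. Many of these genes varied together between mice of a group, as described below, so their signs are not separate observations.

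UDCA in wild types changed 0 of 26 members by limma, with 0 at an unadjusted p below 0.05 (5.57% of all genes), and called 0% of all genes. The members' differences ran from -0.21 for Insig2 to 0.15 for Lss, with a median of 0.0020 against 0.010 over all genes. Scap differed by 0.079 (95% interval -0.11 to 0.26), Srebf2 by -0.054 and Ebp by -0.0014. Srebf2 ran from 7.84 to 8.09 in WT_UDCA with a median of 8.02, across the WT_chow range. Tm7sf2 ran from 8.57 to 8.96 with a median of 8.80 and had 0.14 (SE 0.090, adjusted p = 0.936). Lbr ran from 5.38 to 6.05 with a median of 5.71.

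The genotype by diet interaction, the change with UDCA in knockouts minus that in wild types, tests whether UDCA acted differently in the 2 genotypes. It passed for 1 of 26 members, Scap, against 2.67% of all genes, and 5 had an unadjusted p below 0.05, against 16.3%. The interaction was 0.67 for Scap (SE 0.13, 95% interval 0.40 to 0.93, limma adjusted p = 0.00525), and the call held in all 29 alternatives run. Ebp had 0.37 (SE 0.13, adjusted p = 0.131), Cyp51 -0.44 (SE 0.20, adjusted p = 0.283) and Srebf2 -0.32 (SE 0.15, adjusted p = 0.295). A difference in the response to UDCA between genotypes was thus called for Scap alone among the members. Leaving out KO_chow replicate 3 also called Ebp, at an adjusted p of 0.0497.

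Mice of a group differed from each other in a way that many of the enzyme genes shared. WT_chow replicate 1 was the highest of its group in 17 of 26 members, whereas it was the highest in 14.4% of all genes. KO_chow replicate 2 was the highest in 16 of 26 (20.9% of all genes), and KO_UDCA replicate 1 the lowest in 14 of 26 (16.6% of all genes). The within-group SD was 0.34 for Sqle, 0.32 for Hmgcs1, 0.31 for Fdps and 0.31 for Msmo1, at the 92.3, 90.3, 89.0 and 88.9 percentile of all genes. It was 0.14 for Scap and 0.096 for Mbtps1, at the 15.7 and 3.01 percentile. The median SD over all genes was 0.20.

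To describe this, each gene was centred on its group mean and set against Sqle over the 22 mice. Of 25 genes compared, 9 had a Pearson correlation with Sqle at an adjusted p below 0.05 (permutation test within groups, 100000 resamples, two-sided, Benjamini-Hochberg over the 25), all of them positive. Of all 24010 genes other than Sqle, 1.21% had an r at least as high as the lowest of these 9 (0.58). At an unadjusted p below 0.05 there were 11 of 25 members (44%), all positive, against 6.88% of all genes and 3.29% with a positive r. With p-values adjusted over the 24010 genes, 0% of them passed and so no member did, the lowest adjusted p being 0.192 and the smallest p that these resamples can give 1e-05. The highest was that of Mvd, at r = 0.87 (rho = 0.87, permutation adjusted p = 0.00025 for r and 0.000625 for rho), which was 0.82 without the 2 mice farthest from the median. Msmo1 had r = 0.86 (rho = 0.82), Cyp51 0.83 (rho = 0.81), Hmgcs1 0.72 (rho = 0.68) and Srebf2 0.70 (rho = 0.61), with permutation adjusted p of 0.00025, 0.000333, 0.00394 and 0.0163. Hsd17b7, Nsdhl, Lss and Insig1 had r of 0.65, 0.63, 0.60 and 0.58 (rho = 0.69, 0.55, 0.58 and 0.59, permutation adjusted p = 0.00790, 0.0110, 0.0267 and 0.0383). Scap, Ebp and Tm7sf2 had r of -0.30, -0.35 and -0.30 (rho = -0.30, -0.31 and -0.28, permutation adjusted p = 0.352, 0.332 and 0.366). The 2 mice farthest from the Sqle median were KO_chow replicates 2 and 1. Without them, 4 of 25 genes passed, Mvd, Msmo1, Cyp51 and Hmgcs1. The other 5 no longer passed but kept a positive r, of 0.57 for Hsd17b7 and Lss (permutation adjusted p = 0.0562 for each), 0.54 for Srebf2, 0.51 for Insig1 and 0.51 for Nsdhl (adjusted p = 0.105, 0.105 and 0.0957). The same 4 genes passed without KO_chow replicates 2 and 5, where the other 5 had r from 0.43 for Insig1 to 0.58 for Nsdhl. Within single groups of 6 mice, exact permutation tests passed in 0 of 25 genes after adjustment in WT_UDCA and in KO_UDCA, with 1 and 3 at an unadjusted p below 0.05.

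**Figure D4:**
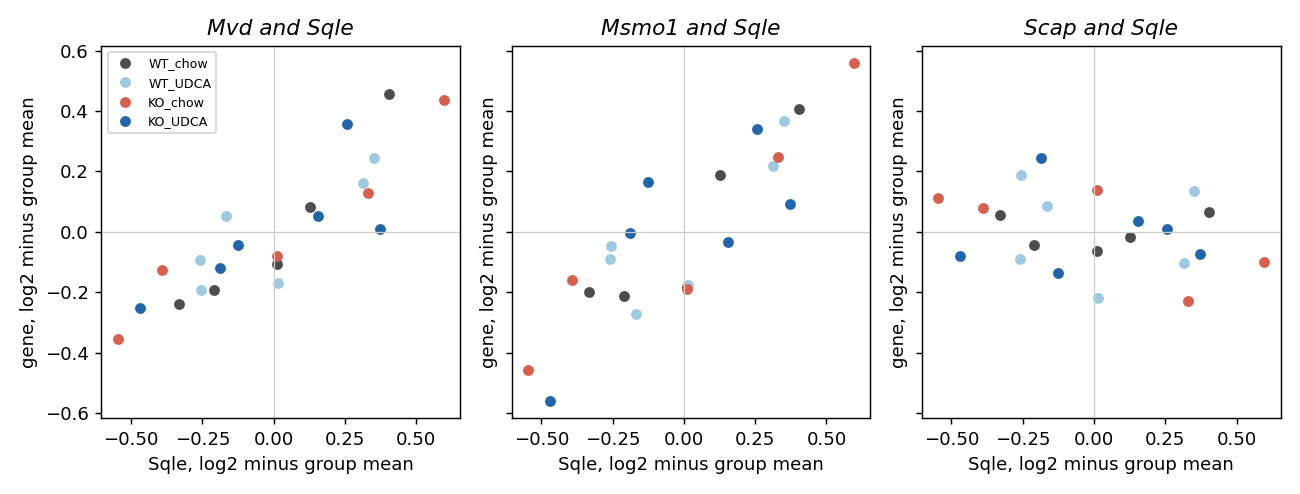
Level of Mvd, Msmo1 and Scap (vertical axes) against Sqle (horizontal axis) in the 22 mice, each as log2 intensity minus the group mean, coloured by group. Mvd and Msmo1 climb with Sqle across mice of all 4 groups (r = 0.87 and 0.86), and Scap does not (r = -0.30).

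Genes of sterol handling outside the 29 were described from 63 companion genes in 7 classes by function, of which 55 had a row. This list, too, was drawn up with earlier results of these data known, so its shares are a description and not a test. In KO_chow vs WT_chow 2 rose and 10 fell, 21.8% of the 55 against 13.7% of all genes, with a median of -0.082. Of 8 genes of LXR and sterol export, 4 fell (50%, against 6.03% of all genes). Abcg8 and Abcg5 encode the paired transporter that secretes cholesterol into bile. Abcg8 measured 9.10, 9.04, 8.96, 8.91 and 9.18 in WT_chow and 8.64, 8.07, 8.27, 8.72 and 7.60 in KO_chow. The groups did not overlap, and it fell by 0.78 (SE 0.15, limma adjusted p = 0.00134). Abcg5 fell by 0.51 (SE 0.13, adjusted p = 0.0111). Lpcat3, a phospholipid remodelling enzyme and LXR target, fell by 0.37 (adjusted p = 0.0321), and Mylip, which encodes a ubiquitin ligase, by 0.46 (adjusted p = 0.0360). The call for Lpcat3 was lost without any of WT_chow replicates 1, 3 and 4 and KO_chow replicates 2, 3 and 5 (adjusted p = 0.0582 to 0.114). That for Mylip was lost without any of WT_chow replicates 2, 4 and 5 and KO_chow replicates 2, 3 and 5 (adjusted p = 0.0549 to 0.107).

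Acss2, the cytosolic acetyl-CoA synthetase that feeds lipid synthesis, measured 9.67, 8.70, 9.65, 9.62 and 8.98 in WT_chow and 8.51, 7.55, 8.65, 8.38 and 7.90 in KO_chow. The groups did not overlap, and it fell 2.19-fold (log2 change -1.13, SE 0.23, limma adjusted p = 0.00211). It was the 1 gene of 6 other SREBP-responsive genes to pass. Ces1d, a carboxylesterase, fell by 0.71 (SE 0.14, adjusted p = 0.00163) and Nceh1, an ester hydrolase, by 0.32 (adjusted p = 0.0485), the 2 called among 7 genes of uptake and the ester cycle. Leaving out any WT_chow mouse or KO_chow replicates 1, 2 or 5 ended the call for Nceh1 (adjusted p = 0.0583 to 0.149). Of 12 transport genes, Npc1, the lysosomal exporter, and Stard5, a sterol carrier, fell by 0.39 and 0.71 (adjusted p = 0.00326 and 0.00436). Of the sterol carriers between plasma membrane and endoplasmic reticulum, Gramd1b rose by 0.43 (adjusted p = 0.0144) and Gramd1c fell by 0.37 (adjusted p = 0.0342). The call for Gramd1c was lost without any of WT_chow replicates 1, 3, 4 and 5 and KO_chow replicates 1, 2 and 4 (adjusted p = 0.0513 to 0.117). Nus1, a subunit of the dolichol synthase, rose by 0.32 (adjusted p = 0.0364), the 1 of 10 isoprenoid branch genes to pass. Without any of WT_chow replicates 1, 3 and 5 and KO_chow replicates 2 and 5 its adjusted p was 0.0502 to 0.120. None of the 5 electron donors and helpers and none of the 7 genes of degradation and retention passed. The share called over all genes, beside which these class counts stand, was 13.7%. Fitting these 2 groups alone called 6 companions (10.9%, against 8.36% of all genes), among which were neither Stard5 (adjusted p = 0.0539) nor Abcg5 (adjusted p = 0.0577). Leaving out KO_chow replicates 2 and 5 called 3 (5.45%, against 4.54% of all genes), Abcg8 at -0.49, Ces1d at -0.39 and Stard5 at -0.43. The other 9 then had adjusted p from 0.0604 to 0.483, with Acss2 at -0.81 (adjusted p = 0.0638), Npc1 at -0.30 (adjusted p = 0.0604) and Gramd1b at 0.42 (adjusted p = 0.0955). The differences of Abcg5, Nceh1 and Nus1 shrank to -0.29, -0.16 and 0.19.

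In KO_UDCA vs KO_chow 8 companions rose and 2 fell, 18.2% of the 55 against 11.2% of all genes, with a median of 0.060. Abcg8 ran from 8.93 to 9.22 in KO_UDCA, above every KO_chow mouse, and rose by 0.86 (SE 0.15, limma adjusted p = 0.000503). Abcg5 rose by 0.61 (adjusted p = 0.00284), Lpcat3 by 0.37 (adjusted p = 0.0338, and 0.0724 to 0.128 without any of KO_chow replicates 2, 3 and 5 and KO_UDCA replicates 3 and 6), Ces1d by 0.76 (adjusted p = 0.000777) and Nceh1 by 0.46 (adjusted p = 0.00409). Acss2 ran from 8.84 to 9.47, again above every KO_chow mouse, and rose by 0.89 (adjusted p = 0.0110), with 0.0507 without KO_chow replicate 2. Stard5 and Npc1 rose by 0.64 and 0.29 (adjusted p = 0.00942 and 0.0204), the second with 0.0507 without KO_chow replicate 2, 0.0811 without replicate 5 and 0.0533 without KO_UDCA replicate 6. Gramd1b fell by 0.35 (adjusted p = 0.0442, and 0.0660 to 0.114 without any of KO_chow replicates 1, 2, 4 and 5 and KO_UDCA replicates 2, 3, 5 and 6). Vcp, the ATPase that extracts proteins for degradation, fell by 0.26 (adjusted p = 0.0108). Fitting these 2 groups alone called 5 companions (9.09%, against 6.06% of all genes), and Stard5, Npc1 and Vcp were not among them (adjusted p = 0.0705, 0.0737 and 0.0562). Leaving out KO_chow replicates 2 and 5 called 2 (3.64%, against 2.8% of all genes), Abcg8 at 0.57 and Ces1d at 0.45. The other 8 then had adjusted p from 0.0541 to 0.313. Among them Stard5 was at 0.35 (adjusted p = 0.136), Acss2 at 0.58 (adjusted p = 0.231), Abcg5 at 0.39 (adjusted p = 0.101) and Npc1 at 0.21 (adjusted p = 0.239). No companion passed by limma in KO_UDCA vs WT_UDCA, KO_UDCA vs WT_chow or WT_UDCA vs WT_chow. At an unadjusted p below 0.05 there were 2, 2 and 3 of 55, or 3.64%, 3.64% and 5.45%, against 5.45%, 5.62% and 5.57% of all genes. The interaction passed for 1 of 55 (1.82%, against 2.67% of all genes), Abcg8, at 0.78 (SE 0.21, adjusted p = 0.0442), and without KO_chow replicates 2 and 5 for 0.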

How the data were processed

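Liver RNA of 22 mice, labelled as separate biological replicates, was measured on 1 array each. Per the labels, the deposited values are RMA intensities on an unlogged scale, made by the authors with probe-level modelling, and RMA is the tool in the submitters' processing notes. For the RMA version and genome build, nothing was given in the sources used here. Of 24973 rows, the platform annotation gave 24015 a single gene symbol. For 4 symbols on several rows the brightest row was kept, leaving 24011 genes. Annotation can be old, and a row averages many probes. No dim gene was filtered out.

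Log2 intensities of all 22 arrays were fitted with limma 3.58.1 in R 4.3.3 (lmFit and eBayes, a mean per group, two-sided), and read with version 1.17.8 of data.table. Within each comparison p-values were Benjamini-Hochberg adjusted across the 24011 genes, and calls were made at an adjusted p below 0.05. Intervals are 95% confidence intervals of the fitted difference, from the SE of the limma fit, and the number of arrays limits the precision. The fit was tested on simulated data. The correlation with Sqle was also run over all other genes, chosen after seeing the data. Correlations and motif searches used Python 3.11.15, numpy 2.4.6, pandas 2.3.3 and scipy 1.17.1. The members and lists were chosen with earlier results of these data known. Members called in any comparison, and the 2 per role with the largest difference in KO_chow vs WT_chow, are given in full. Up to 3 companions per class with the smallest p are named, and Mylip and Gramd1c were added after their values were seen. Alternatives were another log offset, a dim filter, renewed quantile normalisation, a trended robust variance, array weights, a fit to the compared groups, the run of sample numbers as a covariate, leaving out each mouse, and leaving out KO_chow replicates 2 and 5.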

Additional observations from a re-analysis of the deposited data

Results flagged for a closer look

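In 5 of 104 sets of values examined (26 genes in 4 groups), 1 mouse stood apart from the others of its group by Dixon's test, and chance alone flags about 1 in 20 such sets. Srebf2 was at 7.54 in KO_UDCA replicate 1, against 7.81 to 7.96 in the other 5 mice. Ebp was at 9.05 in KO_UDCA replicate 4, against 8.76 to 8.86 in the others. Mvk was at 6.54 in KO_chow replicate 2, against 5.92 to 6.08 in the others. Ggps1, the geranylgeranyl diphosphate synthase gene, was at 6.12 in WT_chow replicate 3, against 5.88 to 5.95 in the others, and at 5.54 in KO_UDCA replicate 2, against 5.98 to 6.12 in the others.

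The change with UDCA differed between genotypes for 1 member and 1 companion by limma's interaction test. The interaction was 0.67 for Scap (adjusted p = 0.00525) and 0.78 for Abcg8, part of the canalicular sterol transporter (adjusted p = 0.0442).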

How the results depend on the processing

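Of 959 values of 49 single-gene results under the alternatives, 830 kept their direction and side of the threshold, 106 kept only the direction and lost the call, 20 gained one and 3 reversed. The 3 were Srebf2 in KO_chow vs WT_chow without KO_chow replicates 2 and 5, at -0.046, and Mvk in KO_UDCA vs KO_chow without KO_UDCA replicate 5, at -0.0072, or without KO_chow replicate 5, at -0.0077 (range -0.0077 to 0.15 with 1 mouse left out). Scap kept its 3 calls in every alternative run. Members called in KO_chow vs WT_chow (3) were 5 with 16 added to intensities, 6 with the dim filter and 1 without KO_chow replicates 2 and 5, and 2 to 5 with 1 mouse left out. Members called in KO_UDCA vs KO_chow (4) were 7 with the dim filter, 2 with array weights, 1 in a fit to the compared groups and 1 without KO_chow replicates 2 and 5, and 2 to 7 with 1 mouse left out. For the interaction (1) the range with 1 mouse left out was 1 to 2. Companions called in KO_chow vs WT_chow (12) were 6 in a fit to the compared groups and 3 without KO_chow replicates 2 and 5, and 7 to 12 with 1 mouse left out. Those in KO_UDCA vs KO_chow (10) were 5 and 2, and 6 to 12. The companion interaction (1) was 4 with 16 added, 4 with the dim filter, 2 with a trended robust variance, and 0 with array weights, with the run of sample numbers or without KO_chow replicates 2 and 5, and ran from 0 to 7 with 1 mouse left out. The other 3 comparisons called 0 members and 0 companions in all alternatives. Genes correlated with Sqle (9) were 4 without KO_chow replicates 2 and 5, 4 without the 2 farthest mice, and 0 within WT_UDCA or KO_UDCA. For this correlation, leaving out KO_chow replicates 2 and 5 was chosen after seeing the data. So was leaving out all KO_chow mice, which gave 7: Mvd, Msmo1, Cyp51, Stard4, Lss, Hmgcs1 and Insig1. Stard4 was not among the 9 (r = 0.76, against 0.15 over all 22 mice), and Srebf2, Nsdhl and Hsd17b7 no longer passed. Adjusting over all 24010 other genes, also chosen after seeing the data, gave 0. There Mvd, at the smallest permutation p that these resamples can give (1e-05), had an adjusted p of 0.192. The number of resamples thus limits what this setting can show. The dim filter tests 12906 genes in place of 24011, and other causes of these shifts were not tested. The search with 1 free base (TCACNCCAC) also found 1 member promoter. No paired analysis was possible because the replicate numbers only follow the order of the records and the labels give no shared numbers.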
